A study of Homo sapiens with 15 samples.

Results

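In A549 cells given the match polyamide and dexamethasone, most genes that the hormone alone moved at least 2-fold still differed from non-treated cells. A smaller group had crossed to the other side of the non-treated level, at shares no larger than among all genes. When smaller hormone changes were counted too, those still moved were no longer the majority of the probe sets. The comparison used the 3 arrays titled with 48 hours of match polyamide and 6 hours of dexamethasone and the 3 arrays titled as non-treated, chosen by title alone, which is 6 of the 15 arrays of the series. A549 is an epithelial line derived from a human lung adenocarcinoma. Per the labels' protocols, the cells grew in F12K medium with charcoal-treated serum, a treatment that removes steroids, and total RNA was hybridized to Affymetrix arrays.

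Each of the 5 groups had 3 arrays. The non-treated cells received no compound and no hormone. The dexamethasone group had the hormone alone for 6 hours. The match, mismatch and mifepristone groups had that compound for 48 hours and dexamethasone for 6 hours. The labels give neither the order of addition nor a dose. No array in these data carried the polyamide without dexamethasone, so the part of a difference that comes with the hormone and the part that comes with the ligand cannot be told apart. Nothing in the labels ties replicate arrays to separate cultures. Every p-value sets a group difference against array-to-array spread, which could therefore be technical. A549 is a single established line, and in a bulk extract fewer cells with a transcript and less of that transcript per cell cannot be told apart.

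Dexamethasone is a synthetic glucocorticoid. It binds the glucocorticoid receptor, which enters the nucleus, raises some genes through palindromic DNA elements and lowers others, many of them inflammatory, partly through other transcription factors. Polyamides are synthetic molecules that bind short sequences in the DNA minor groove, and the series title describes one directed at the glucocorticoid response element. Mifepristone is an antagonist of the receptor.

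Promoter windows of 4 genes discussed here are printed because each holds the core of a response element and each stands for a different outcome or shape of motif. The windows are RefSeq sequence of GRCh38.p14, 250 bases before to 50 bases after the annotated start, read 5′ to 3′ on the strand of the gene. The motifs searched on both strands were the half-site AGAACA, read as TGTTCT on the other strand, and the spaced pair GNACANNNTGTNC, and these can overlap. Capitals mark the match. FKBP5 (chr6:35728534-35728833, minus strand) was still above the non-treated level, and its half-site filled bases 251 to 256 of the window. CHST7 (chrX:46573515-46573814, plus strand) was still above and higher than under dexamethasone alone, with a spaced pair at bases 7 to 19. NEDD4 (chr15:55917087-55917386, minus strand) was induced by the hormone and below non-treated with the ligand, with a half-site at bases 181 to 186. IER5L (chr9:129178212-129178511, minus strand) was repressed and still below, with a half-site at bases 38 to 43.
FKBP5: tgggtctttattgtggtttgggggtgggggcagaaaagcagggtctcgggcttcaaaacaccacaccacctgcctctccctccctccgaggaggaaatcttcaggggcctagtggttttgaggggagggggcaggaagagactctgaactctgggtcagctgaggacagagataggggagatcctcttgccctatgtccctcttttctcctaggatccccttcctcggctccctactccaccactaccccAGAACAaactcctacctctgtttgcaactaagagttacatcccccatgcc
CHST7: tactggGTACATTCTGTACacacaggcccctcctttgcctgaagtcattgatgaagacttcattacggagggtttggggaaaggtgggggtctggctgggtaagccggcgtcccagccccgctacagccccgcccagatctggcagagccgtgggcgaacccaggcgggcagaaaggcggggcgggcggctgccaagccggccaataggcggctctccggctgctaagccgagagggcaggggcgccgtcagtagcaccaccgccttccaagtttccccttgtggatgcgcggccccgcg
NEDD4: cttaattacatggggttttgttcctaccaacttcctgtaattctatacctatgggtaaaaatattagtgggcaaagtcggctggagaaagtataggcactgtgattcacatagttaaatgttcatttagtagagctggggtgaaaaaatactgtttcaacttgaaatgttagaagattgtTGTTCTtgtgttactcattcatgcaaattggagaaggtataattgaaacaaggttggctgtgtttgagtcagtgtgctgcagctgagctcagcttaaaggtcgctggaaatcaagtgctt
IER5L: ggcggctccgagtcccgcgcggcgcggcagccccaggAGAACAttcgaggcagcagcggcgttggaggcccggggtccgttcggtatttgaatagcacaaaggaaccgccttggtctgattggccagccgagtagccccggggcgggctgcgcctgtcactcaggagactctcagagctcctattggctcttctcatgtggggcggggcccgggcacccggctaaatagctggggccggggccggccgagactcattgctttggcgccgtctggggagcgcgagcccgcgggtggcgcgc
The half-site occurred in 14.9% of all 27305 promoter windows and in 10.1% of the 12931 windows of tested genes. Among induced genes with a window it stood in 4 of 62 still above non-treated, 5 of 34 not called and 1 of 8 below non-treated. Among repressed genes it stood in 2 of 22 still below, 0 of 8 not called and 0 of 6 above non-treated. The spaced pair occurred in 0.388% of all windows. A match is a description of letters in this window and not evidence of binding, and receptor binding far from a start site lies outside it.

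The identity of the cells was read from markers. All 8 epithelial markers of A549 were measured, and their summed signal was 34999 to 35441 on the non-treated arrays and 31294 to 32191 on the match arrays. Of 12 markers of leukocytes, fibroblasts and endothelium, PTPRC, VWF and CDH5 were below the filter on low signals, and the other 9 summed to 246.7 to 268.3 and 347.2 to 383.6. COL1A1 was the largest part of that sum. Arrays of the same group correlated at r of 0.911 to 0.925 on log2 of the signals as deposited, over all probe sets. A non-treated with a match array correlated at 0.891 to 0.899. On the first principal component the non-treated arrays lay between -32.66 and -30.23 and the match arrays between 60.49 and 67.03. The mismatch arrays lay between 31.9 and 35.58, and the dexamethasone and mifepristone arrays between -36.69 and -30.65. With 3 arrays in each group, their number limits how precise any value can be.

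Over the whole transcriptome, 6129 of 16358 genes (37.5%) differed between the match polyamide with dexamethasone and non-treated cells at a Benjamini-Hochberg adjusted p under 0.05 in limma. Of these, 3169 were higher (19.4%) and 2960 lower (18.1%). Differences of at least 2-fold were more often falls, with 758 genes lower and 355 higher. Dexamethasone alone changed 1112 genes (6.8%) against the same non-treated arrays, 523 higher (3.2%) and 589 lower (3.6%). On the probe set level 11864 of 39744 (29.9%) were called in the match comparison, 5993 higher (15.1%) and 5871 lower (14.8%). The split depends on the scaling: the higher share of the called probe sets was 50.5%, against 70.4% when arrays were scaled on spike-in controls and 39.3% with median centring. All log2 values here are of signal + 16, which understates changes of weakly expressed genes, and signals are quantile normalized.

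The genes that stood farthest above the non-treated level were of several kinds. RASD1, a Ras-related GTPase, gave signals of 20.66, 18.93 and 15.14 on the non-treated arrays and 452.7, 250.9 and 389.1 on the match arrays, a log2 difference of 3.44 (SE 0.21, 3 arrays per group; limma adjusted p = 1.2e-10). Every match array lay far above every non-treated array. Under dexamethasone alone RASD1 stood at -0.08 and did not pass (limma adjusted p = 0.93), and under the mismatch polyamide at 3.54. The chemokine CCL20 stood 3.21 higher, the trefoil peptide TFF1 3.11, the nuclear receptor NR4A2 3.09, and ISG15, a ubiquitin-like interferon-induced protein, 2.44. RRAD, another small GTPase, the lipoprotein lipase inhibitor ANGPTL4 and the caveolar protein CAVIN2 completed the 8 highest at 2.72, 2.63 and 2.51. These last 3 were hormone-induced genes, whereas dexamethasone alone had lowered NR4A2 by 1.83.

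The genes farthest below were little moved by the hormone alone. SMYD3, a lysine methyltransferase, fell from 223.4, 235.3 and 262.9 to 5.572, 1.485 and 1.825, a log2 difference of -3.76 (SE 0.15, 3 arrays per group; limma adjusted p = 2.3e-13). The groups did not overlap, and the match arrays were near the bottom of the scale. CNTN1, a neuronal adhesion protein, stood at -3.72, the mitochondrial peptidase IMMP2L at -3.51, adenosine kinase ADK at -3.49 and the RNA-binding protein BICC1 at -3.48. The receptor tyrosine phosphatases PTPRK and PTPRM stood at -3.47 and -3.46, and TBC1D5, a regulator of membrane trafficking, at -3.34. A further probe set of PTPRK was not called (-0.52, limma adjusted p = 0.074). Under dexamethasone alone BICC1 was lower by -0.45 (limma adjusted p = 0.020) and none of the other 7 of these 8 genes passed the test. The mismatch polyamide put the 8 between -3.31 for IMMP2L and -1.70 for CNTN1 from non-treated.

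Dexamethasone alone raised 139 genes and lowered 55 at least 2-fold. Against non-treated cells, 85 of the 139 induced genes (61.2%) were still higher with the match polyamide, 44 (31.7%) were not called and 10 (7.19%) were lower, where 19.4% of all genes were higher and 18.1% lower. Of the 55 repressed genes 33 (60%) were still lower, 12 (21.8%) were not called and 10 (18.2%) were higher. The higher share of the repressed genes was thus near that of all genes. The lower share of the induced genes was below that of all genes. Both comparisons share the 3 non-treated arrays, so a chance low or high value on those arrays moves both in the same direction.

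**Figure D1:**
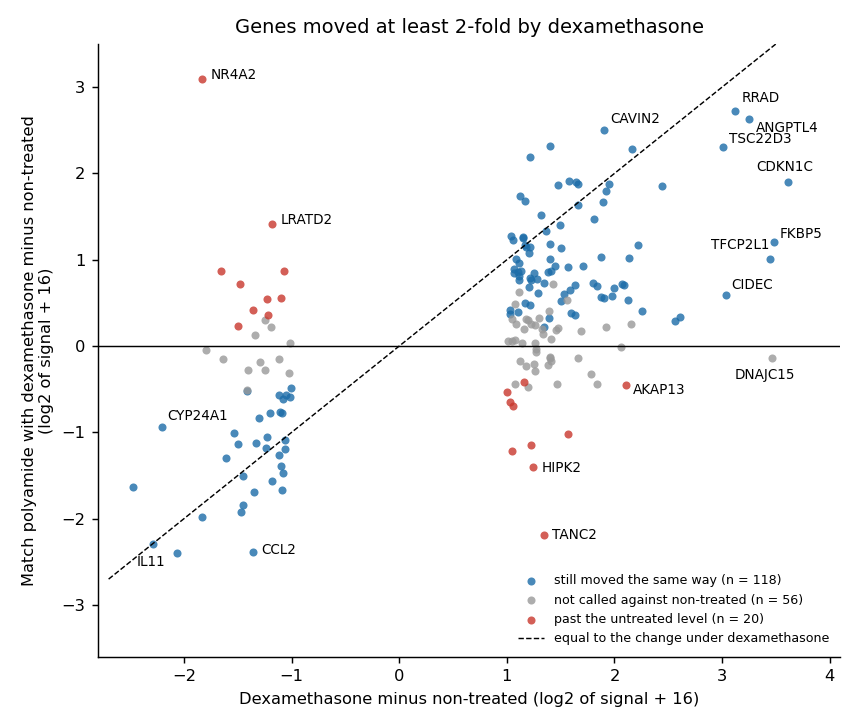
Log2 change of each gene that dexamethasone moved at least 2-fold, under dexamethasone alone (x axis) and under match polyamide with dexamethasone (y axis), both against the same 3 non-treated arrays on the log2(signal + 16) scale. Blue points were still moved the same way, and red points were past the non-treated level by the test. Grey points were not called against non-treated and lie on both sides of 0. NR4A2 at the upper left was repressed by the hormone yet 3.09 above non-treated with the ligand.

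The comparison with dexamethasone alone counts the genes called lower or higher with the match polyamide. In that comparison 21.5% of all genes were higher and 17.4% lower with the match polyamide. Of the 85 still-induced genes, 50 were lower than under dexamethasone, 26 were not called and 9 were higher. Their median retained 65.3% of the hormone's log2 change. Of the 33 still-repressed genes, 11 were higher than under dexamethasone, 17 were not called and 5 were lower, and the median retained 86.0%. Genes that were not called or had crossed the non-treated level are not counted here, since the way they were chosen largely fixes their difference from dexamethasone. The genes counted were themselves chosen for a change of at least 2-fold on the same dexamethasone arrays. That favours values moved back toward non-treated and a lower share kept, while the rule that they still differed favours a higher share. A gene not called against dexamethasone may also have moved back.

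FKBP5, a co-chaperone of the receptor and a standard readout of its activity, returned in part. Its signals were 212.8, 229.4 and 251.3 in non-treated cells, 2663, 2711 and 2832 under dexamethasone, and 508.5, 586.2 and 565.8 with the match polyamide. The 3 groups did not overlap, and the match arrays were above non-treated but far below dexamethasone. The log2 difference from non-treated was 1.21 (SE 0.07, 3 arrays per group; limma adjusted p = 5.5e-11), and 34.6% of the hormone's log2 change remained. With the mismatch polyamide FKBP5 stood 2.64 above non-treated, and match was below mismatch by 1.43 (limma adjusted p = 8.7e-11). The cyclin-dependent kinase inhibitor CDKN1C followed the same order, with 15.94, 14.62 and 23.01 in non-treated cells, 362.1, 396.7 and 435.7 under dexamethasone and 125.1, 101.0 and 105.3 with the match polyamide. It kept 52.7% of the change, a difference from non-treated of 1.91 (SE 0.12).

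Other induced genes kept less. CIDEC, a lipid-droplet protein, rose from 46.18, 46.62 and 49.54 to 449.8, 543.6 and 520.2 under the hormone and was 89.48, 69.63 and 80.85 with the ligand, 19.5% of the change. The transcription factor TFCP2L1 kept 29.1%. SYBU, a kinesin adaptor, kept 11.1%. All 3 remained above the non-treated level by the test.

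Other induced genes kept most of their rise. The gene of the anti-inflammatory protein GILZ, TSC22D3, had signals of 132.9, 118.7 and 117.7 in non-treated cells, 1105, 1054 and 1145 under dexamethasone and 638.1, 690.6 and 681.0 with the match polyamide. The match arrays lay above non-treated and below dexamethasone without overlap. TSC22D3 stood 2.30 above non-treated (SE 0.10, 3 arrays per group; limma adjusted p = 2.9e-13) and -0.70 from dexamethasone (limma adjusted p = 6e-06), and 76.6% of the hormone's change was kept. Of its 2 further probe sets 1 was higher than non-treated (1.60) and 1 was not called (0.09, limma adjusted p = 0.78). ZFP36, which destabilises cytokine transcripts, was 2.29 higher and did not differ from dexamethasone beyond the test (0.13, limma adjusted p = 0.37). The MAP kinase phosphatase gene DUSP1 had signals of 2160, 2160 and 2254 in non-treated cells and 5260, 5011 and 4772 with the match polyamide. Its difference was 1.19 (SE 0.05), slightly below dexamethasone alone by 0.21.

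In 9 induced genes the match polyamide stood above dexamethasone alone. KLF4, a transcription factor, had signals of 212.5, 230.6 and 257.8 in non-treated cells, 613.3, 518.4 and 560.5 under dexamethasone and 1231, 1151 and 1002 with the ligand. The match arrays were the highest of the 3 groups with no overlap, at 2.20 above non-treated and 0.98 above dexamethasone (SE 0.09, 3 arrays per group; limma adjusted p = 2.8e-08). CHST7, a sulfotransferase, had 121.2, 126.4 and 154.9, then 354.7, 379.3 and 402.7, then 694.8, 747.6 and 751.7 in the same order, and stood 2.32 above non-treated. The other 7 were CAVIN2 (2.51 above non-treated), the aquaporin AQP3 (1.74), the clock gene PER2 (1.69), TRIM29 (1.86), the stress gene GADD45A (1.91), ERRFI1 (1.90), a feedback inhibitor of the EGF receptor, and MCL1 (1.52), an inhibitor of apoptosis. Of 5 further probe sets of MCL1, 4 were higher and 1 was not called (0.52, limma adjusted p = 0.31). The mismatch polyamide gave CHST7 2.38, GADD45A 1.92 and PER2 1.63 above non-treated, and match did not differ from mismatch in these by the test (limma adjusted p of 0.78, 0.94 and 0.76).

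Other receptor targets were read one by one. SGK1, a kinase that the receptor induces, rose by 0.96 under dexamethasone alone, below the 2-fold rule, and stood 1.22 above non-treated with the match polyamide (limma adjusted p = 6.1e-09). KLF9, a transcription factor and one of the 85 still-induced genes, was weakly expressed, with 0.1749, 4.167 and 1.45 in non-treated cells and 14.64, 19.82 and 14.3 with the ligand. It stood 0.85 higher (SE 0.19, 3 arrays per group; limma adjusted p = 0.0013), and a further probe set was not called (0.27, limma adjusted p = 0.51). ZBTB16, a receptor target in other cells, was not past the test in either comparison (-0.18 with the match polyamide, limma adjusted p = 0.71), and PER1 had no tested probe set of its own.

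Among the genes still repressed, CCL2, a monocyte chemokine, was lower with the ligand than with the hormone alone. Its signals were 139.6, 100.3 and 124.8 in non-treated cells, 30.82, 40.21 and 41.22 under dexamethasone and 11.11, 6.494 and 13.33 with the match polyamide. No 2 groups overlapped. The difference from non-treated was -2.38 (SE 0.18, 3 arrays per group; limma adjusted p = 2.4e-09) and that from dexamethasone -1.02 (limma adjusted p = 0.00014). The cytokine IL11 went from 102.8, 84.32 and 78.16 to 2.426, 10.15 and 3.531, a difference of -2.30 beside -2.29 under the hormone alone, and a further probe set of IL11 was not called (0.31, limma adjusted p = 0.50). ST8SIA4, a sialyltransferase, stood at -2.40, the membrane protein TM4SF20 at -1.98 and the muscle cofactor MYOCD at -1.93, none of them different from dexamethasone by the test. IER5L, an immediate early response relative whose promoter window holds a half-site, had 312.0, 384.3 and 417.0 in non-treated cells and 87.76, 103.6 and 82.44 with the ligand, a difference of -1.85.

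Partial return of repressed genes was seen in 11. CYP24A1, the vitamin D 24-hydroxylase, fell from 2640, 2760 and 2861 to 621.1, 502.5 and 643.0 under dexamethasone and was 1255, 1637 and 1406 with the match polyamide. It lay between both groups without overlap, at -0.94 from non-treated with 42.8% of the change kept. HMOX1, the haem oxygenase, kept 65.7%, the cytokine TNFSF15 66.3% and the cystine transporter SLC7A11 81.0%.

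**Figure D2:**
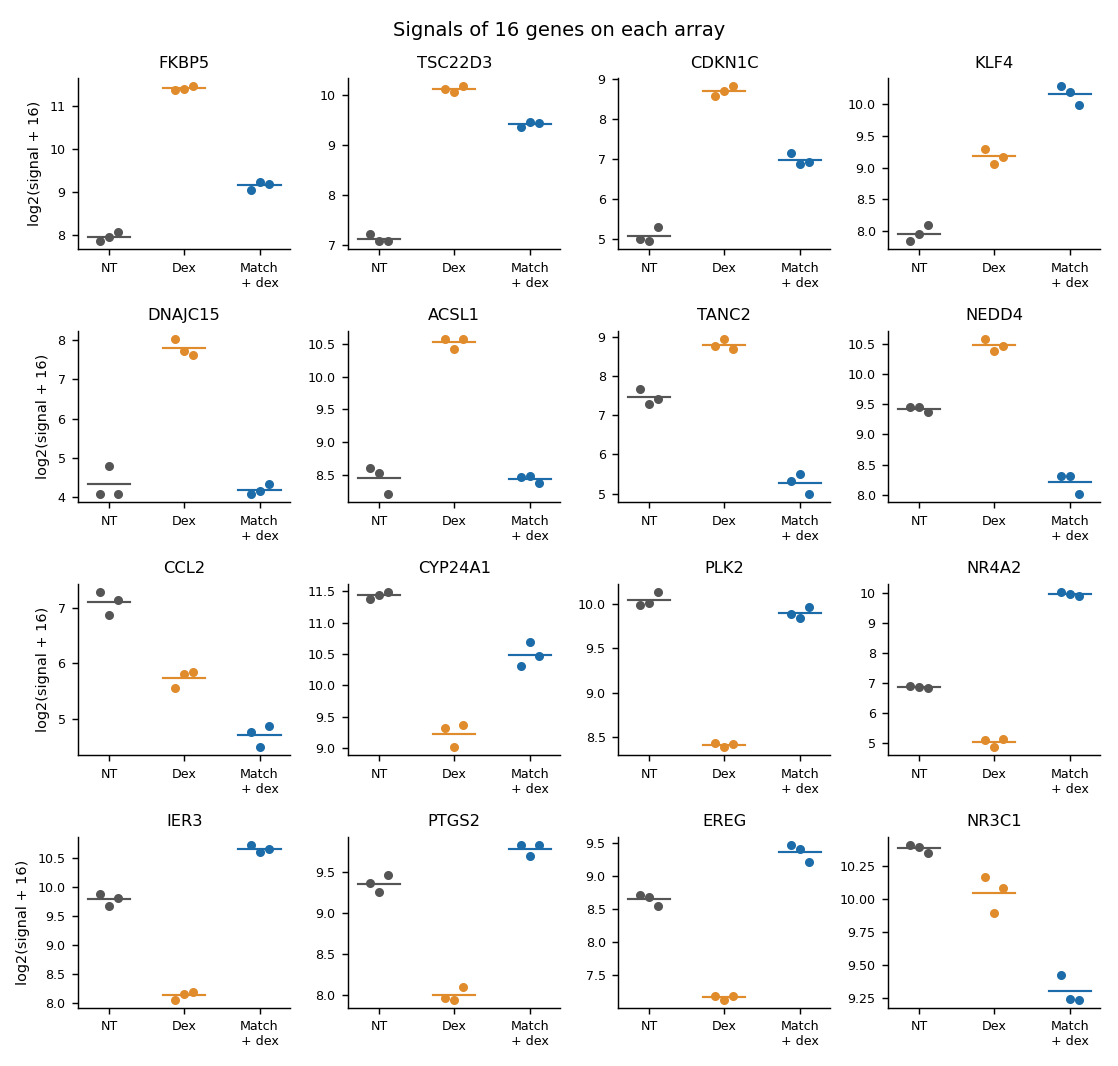
Normalized signal of 16 genes on each of 3 non-treated (NT, grey), 3 dexamethasone (Dex, orange) and 3 match polyamide with dexamethasone (Match + dex, blue) arrays, on a log2(signal + 16) axis that differs between panels; dots are arrays and lines are group means. FKBP5 and CDKN1C with the ligand lie between the other groups, KLF4 lies above both, TANC2 and NEDD4 lie below both, and NR4A2, IER3, PTGS2 and EREG rise above both.

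The 10 induced genes below the non-treated level were led by TANC2, a postsynaptic scaffold protein. Its signals were 186.7, 139.7 and 154.1 in non-treated cells, 415.4, 474.6 and 398.0 under dexamethasone and 23.81, 29.02 and 15.58 with the match polyamide. The match arrays were the lowest of the 3 groups without overlap, at -2.19 from non-treated (SE 0.14, 3 arrays per group; limma adjusted p = 1.8e-10). A further probe set of TANC2 was not called (-0.58, limma adjusted p = 0.089). NEDD4, a ubiquitin ligase, had 681.4, 683.2 and 644.7, then 1510, 1317 and 1393, then 300.6, 300.6 and 242.2, a difference from non-treated of -1.21 (SE 0.12, 3 arrays per group; limma adjusted p = 6.3e-08). HPCAL1, a calcium-binding protein, stood at -0.53, and a further probe set of it was lower as well (-0.35, limma adjusted p = 0.020). Spike-in scaling lost the call of HPCAL1 (-0.34, limma adjusted p = 0.13).

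Probe sets of the remaining genes of this class did not all fall. The kinase HIPK2 stood at -1.41 on its representative probe set, and of its 8 others 2 were lower, 1 was higher (0.62, limma adjusted p = 0.020) and 5 were not called. The repressor ZBTB20 stood at -1.15, and of its 10 others 6 were lower, 1 was higher (0.65, limma adjusted p = 0.013) and 3 were not called. NAV2, a neuron navigator, stood at -1.01, with none of its 4 others called. The matrix protein THBS1 stood at -0.70, with 2 of 5 others lower and 3 not called. AKAP13, a kinase anchor, stood at -0.45 (limma adjusted p = 0.021), with none of its 7 others called. Its call was lost in 5 of 17 alternative settings, among them without match replicate 3 (-0.32, limma adjusted p = 0.13) or non-treated replicate 1 (-0.38, limma adjusted p = 0.092). REEP1 at -0.65 and PLEKHA7 at -0.42 completed the class. The arrays of REEP1 overlapped, with 44.26, 27.98 and 51.76 in non-treated cells and 36.92, 8.783 and 19.41 with the match polyamide (limma adjusted p = 0.036). With the mismatch polyamide 6 of the 10 were also below non-treated by the test, where 12.7% of all genes were. They ran from TANC2 at -1.25 to HPCAL1 at -0.28. AKAP13 (0.42) and PLEKHA7 (0.48) were above non-treated, and THBS1 (-0.05) and REEP1 (-0.06) did not pass. Match was below mismatch in 8 of the 10, where 13.5% of all genes were lower, and the difference did not pass for NAV2 (-0.22, limma adjusted p = 0.46) and REEP1 (-0.59, limma adjusted p = 0.084). The class was chosen for low match values, which favours that direction.

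The 10 repressed genes above the non-treated level held immediate early and inflammatory genes. NR4A2 had signals of 103.5, 101.5 and 99.32 in non-treated cells, 18.65, 13.32 and 19.32 under dexamethasone and 1040, 980.7 and 934.0 with the match polyamide. Each group was tight and far from the others, with a difference from non-treated of 3.09 (SE 0.11, 3 arrays per group; limma adjusted p = 7.1e-14), and both further probe sets were also higher. IER3, an early response gene, had 927.9, 803.6 and 892.3, then 251.0, 270.0 and 278.1, then 1690, 1540 and 1609, a difference of 0.87 (SE 0.07). The EGF receptor ligand EREG had 402.4, 395.3 and 357.4 in non-treated cells and 695.5, 666.6 and 578.6 with the ligand, a difference of 0.72 (SE 0.10). PTGS2, the inducible cyclooxygenase, had 640.8, 593.7 and 687.4 and 893.2, 809.6 and 888.2, a difference of 0.42 (SE 0.10, 3 arrays per group; limma adjusted p = 0.0032).

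The mismatch polyamide gave both directions in this class, where 14.9% of all genes were higher than non-treated with it and 12.7% lower. IER3 (0.39) and LRATD2 (0.46) were above non-treated with it as well. IER2 (-0.86), CXCL3 (-0.78), a neutrophil chemokine, EREG (-0.75), OSGIN1 (-0.60) and PTGS2 (-0.40) were below. NR4A2 (0.21), STAMBPL1 (0.00) and PHLDA2 (-0.12) did not pass. All 10 were higher with match than with mismatch by the test, where 9.43% of all genes were, and the class was chosen for high match values, which favours that direction. Match stood above mismatch by 2.88 for NR4A2 (limma adjusted p = 1e-11), 1.47 for EREG (3.5e-09), 1.33 for CXCL3 (1e-05) and 0.83 for PTGS2 (1e-05), and the smallest difference was 0.48 for PHLDA2 (0.0069). LRATD2 stood 1.41 above non-treated and the deubiquitinase STAMBPL1 0.86, and PHLDA2, an imprinted growth regulator, 0.36. OSGIN1 at 0.55 and IER2 at 0.24 were the others. The arrays of OSGIN1 overlapped, with 88.84, 80.28 and 55.55 in non-treated cells and 86.62, 124 and 142.1 with the match polyamide (limma adjusted p = 0.025). The further probe sets of LRATD2, EREG, PHLDA2 and PTGS2 were not called (PTGS2 at 0.34, limma adjusted p = 0.083), nor was 1 of 2 of STAMBPL1. The call of PTGS2 was lost as deposited (0.46, limma adjusted p = 0.065) and with median centring (0.34, 0.076). The call of CXCL3 (0.56, limma adjusted p = 0.014) was lost in 3 of 17 alternative settings. Among them were those without match replicate 3 (0.43, 0.086) or non-treated replicate 1 (0.47, 0.071). That of PHLDA2 was lost in 5 of 17, among them without match replicate 1 (0.30, 0.10) or non-treated replicate 3 (0.31, 0.11).

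Of the hormone-moved genes not called, DNAJC15, a mitochondrial co-chaperone, had the largest rise under dexamethasone. Its signals were 0.9791, 11.81 and 0.9714 in non-treated cells, 244.5, 196.6 and 179.8 under the hormone and 0.8412, 1.709 and 4.206 with the match polyamide. The match and non-treated arrays overlapped near the bottom of the scale (-0.14, 95% interval -0.57 to 0.29, 3 arrays per group; limma adjusted p = 0.69), though 1 of its 2 further probe sets was higher (0.51, limma adjusted p = 0.027). ACSL1, a fatty acid CoA ligase, had 375.4, 357.0 and 280.7, then 1503, 1349 and 1501, then 339.1, 341.8 and 317.9. Its interval ran from -0.22 to 0.20, within which the sign is not fixed. With the mismatch polyamide DNAJC15 and ACSL1 stood 2.15 and 1.15 above non-treated, and match was below mismatch by -2.29 (limma adjusted p = 1.9e-07) and -1.16 (1.2e-07). CDC42EP3, a Cdc42 effector (0.22), RASSF4, a Ras-association protein (-0.44), and TMT1A, a methyltransferase (-0.33), were not called on the representative probe sets either, and 1 of 3 further probe sets of CDC42EP3 was (0.30, limma adjusted p = 0.030). Without match replicate 2 CDC42EP3 passed (0.31, limma adjusted p = 0.019), and without match replicate 3 RASSF4 did (-0.63, 0.011).

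Repressed genes not called included PLK2, a polo-like kinase, with 1003, 1021 and 1111 in non-treated cells, 329.9, 318.7 and 326.7 under the hormone and 930.5, 905.7 and 986.9 with the match polyamide. All match arrays were below all non-treated arrays, but the difference did not pass (-0.15, limma adjusted p = 0.12). The DNA glycosylase NEIL3 stood at 0.13, the ubiquitin ligase MARCHF4 at -0.19, RASSF10 at -0.28, the magnesium transporter CNNM4 at -0.05 and TRIML2 at -0.51. TRIML2 passed without match replicate 2 (-0.65, limma adjusted p = 0.034). PLK2 and NEIL3 with the mismatch polyamide were at -1.20 and -0.69, and match was above it by 1.06 (limma adjusted p = 2.5e-09) and 0.82 (2.3e-06).

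Across the genes moved by dexamethasone, a rule that uses neither polyamide, match and mismatch were compared directly. Of the 139 induced genes 82 were lower with match than with mismatch, 11 higher and 46 not called, with a median of -0.51 against -0.02 over all genes, of which 13.5% were lower and 9.43% higher. Of the 55 repressed genes 27 were higher, 2 lower and 26 not called, with a median of 0.35. Against non-treated cells the mismatch polyamide left 115 of the 139 induced genes higher and 6 lower (background 14.9% and 12.7%), where match gave 85 and 10. Mifepristone with dexamethasone left 21 higher and 0 lower (background 0.171% and 0.0734%), and it left 6 of the 55 repressed genes lower. P-values were adjusted within each comparison, so a call needed a larger difference with mifepristone, and these counts are not on a like cut. Median differences of the induced genes from non-treated were 1.15 with mismatch, 0.59 with match and 0.24 with mifepristone. Those of the repressed genes were -0.99, -0.62 and -0.29. These 3 comparisons share the non-treated arrays.

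The glucocorticoid-induced list, genes known to respond to the receptor in many cells, had 44 members tested. With the match polyamide 32 were higher than non-treated, 1 lower and 11 not past the test. The median was 0.86 against 0.03 over all genes, of which 19.4% were higher and 18.1% lower. Under dexamethasone alone 36 were higher, where 3.2% of all genes were, and the median was 1.26. ERRFI1, DUSP1, TSC22D3 and ZFP36 had the smallest p-values. ANXA1, a phospholipase inhibitor, was the member that was lower (-0.12), and trimmed-mean, spike-in and deposited scaling had no lower member. Metallothioneins, zinc-binding proteins that glucocorticoids and metals raise, were higher in 4 of 7 members, with MT1X at 0.58 and MT1E at 0.57. Their median was 0.36, against 1.88 under dexamethasone alone. MT1H (0.40) and MT2A (0.36) lost their calls when 1 array was left out, MT1H without match replicate 2 (0.24, limma adjusted p = 0.19) or non-treated replicate 1 (0.39, 0.073) or 3 (0.35, 0.10), MT2A without match replicate 2 (0.32, 0.11) or 3 (0.33, 0.11) or non-treated replicate 1 (0.19, 0.27). MT1F passed without match replicate 3 (0.45, 0.036) or non-treated replicate 2 (0.45, 0.036). Only 2 members were called as deposited or with median centring. Over 17 alternative settings MT1H lost its call in 6 and MT2A in 7. These paralogs are near-identical, so their probe sets may share signal.

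Of 24 inflammatory genes 9 were higher, 6 lower and 9 not past the test (median 0.16), where 19.4% of all genes were higher and 18.1% lower, so the lower count is near the background. CXCL2, a neutrophil chemokine, had 70.64, 81.32 and 84.7 in non-treated cells and 340.0, 293.0 and 311.3 with the match polyamide, 1.80 higher with no overlap. It was not moved by dexamethasone alone by the test (-0.03) and stood at 0.08 with the mismatch polyamide, which differed from match by 1.72 (limma adjusted p = 1.4e-08). CCL20, CXCL2 and IER3 were higher and CCL2 lower among the 4 smallest p-values. CXCL8, the main neutrophil chemokine, was at 0.61 (limma adjusted p = 0.032), and the call was lost in 6 of 16 alternative settings. Among them were those without match replicate 1 (0.50, 0.13) or 2 (0.59, 0.083) or non-treated replicate 1 (0.61, 0.072) or 2 (0.53, 0.12). With median centring 6 members of the list were higher.

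**Figure D3:**
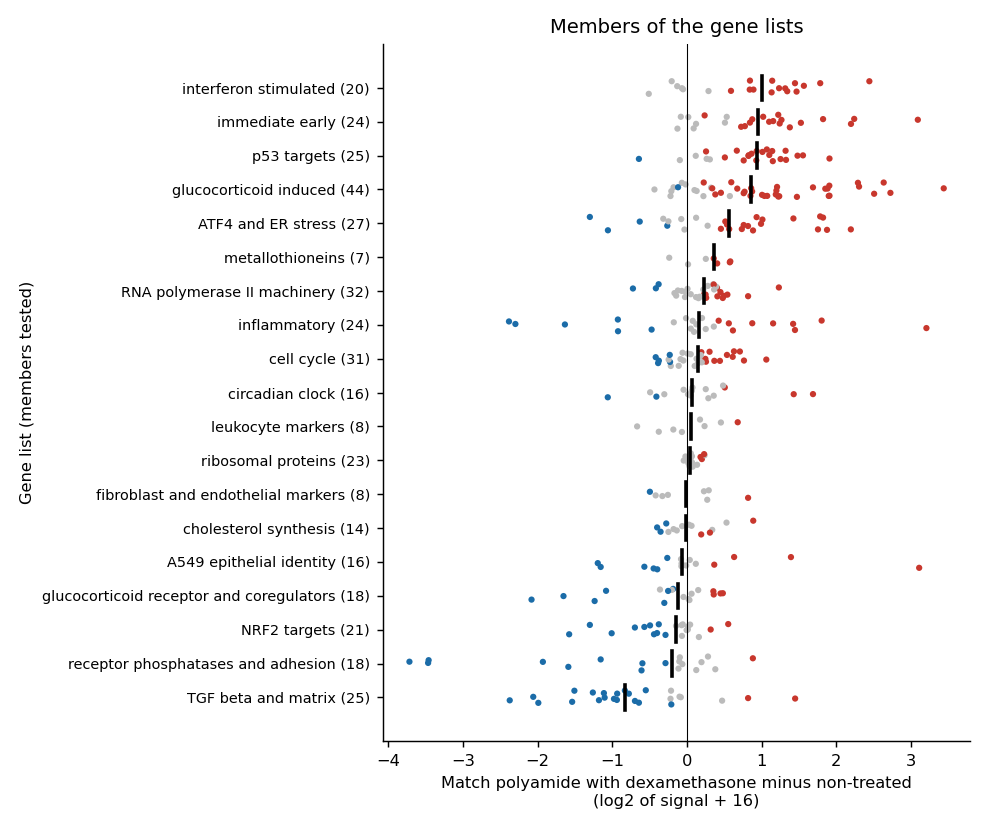
Log2(signal + 16) difference of match polyamide with dexamethasone from non-treated for each tested member of 19 gene lists, with the number of members tested in brackets; red and blue points passed the test higher and lower, grey points did not, and black bars are medians. Interferon-stimulated, immediate early, p53 and glucocorticoid-induced lists have medians from 0.86 to 1.01, and the TGF beta and matrix list has a median of -0.83.

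In 4 further lists most members were higher with the match polyamide, where 19.4% of all genes were higher. Immediate early genes, the first transcripts of a growth or stress signal, were higher in 17 of 24 members with 0 lower (median 0.95), among them NR4A2, KLF4, MCL1 and DUSP6, a MAP kinase phosphatase (2.24). Targets of p53, the tumour suppressor that responds to DNA damage, were higher in 20 of 25 with 1 lower (median 0.93), with GADD45A, SERTAD1 (1.55), the phosphatase PPM1D (1.15) and the quinone oxidoreductase TP53I3 (1.10). A further probe set of PPM1D was not called (0.18). Interferon-stimulated genes were higher in 14 of 20 with 0 lower (median 1.01), with ISG15, the transcription factor IRF7 (1.78), the antiviral synthetase OAS1 (1.47) and the exonuclease ISG20 (1.45).

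Genes of ATF4, the amino acid and ER stress factor, were higher in 17 of 27 and lower in 4 (median 0.56). Asparagine synthetase ASNS stood at 1.87, the pseudokinase TRIB3 at 1.42 and the folate enzyme MTHFD2 at 0.99, while SLC7A11 stood at -1.30. For immediate early, p53, interferon and ATF4 genes, dexamethasone alone gave medians of -0.14, -0.03, -0.05 and -0.11. The first of these hides movement both ways, since dexamethasone raised 6 of the 24 immediate early genes and lowered 9. Over all genes dexamethasone alone raised 3.2% and lowered 3.6%. Under every scaling tried each list kept its median above 0.

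TGF beta and matrix genes were mostly lower, with 18 of 25 below non-treated, 2 above and 5 not past the test (median -0.83), where 18.1% of all genes were lower. TGFBI, a secreted matrix protein, had 5078, 5248 and 5523 in non-treated cells and 2338, 2228 and 2399 with the match polyamide, -1.18 with no overlap (SE 0.05, 3 arrays per group; limma adjusted p = 1.3e-12). The collagen COL4A2 stood at -2.37 and the integrin ITGB1 at -0.83, while the receptor TGFBR1 was higher (1.45). Of 5 further probe sets of ITGB1, 2 were lower and 3 were not called. Receptor phosphatase and adhesion genes were lower in 9 of 18 and higher in 1, with CNTN1, PTPRK, PTPRM and the cadherin CDH2 (-1.93) at the front. NRF2 targets, the antioxidant programme that is active in A549, were lower in 10 of 21 and higher in 2 (median -0.15), with the malic enzyme ME1 at -1.58, UGDH at -0.70 and AKR1C3 at -0.44, and the median was 0.04 with spike-in scaling. Of 2 further probe sets of ME1, 1 was lower (-1.60) and 1 was not called (0.16).

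The receptor and its coregulators were lower in 7 of 18 and higher in 4 (median -0.12, and 0.04 with spike-in scaling), where 18.1% of all genes were lower and 19.4% higher, so the higher count is near the background. NR3C1, the glucocorticoid receptor itself, had signals of 1349, 1332 and 1289 in non-treated cells, 1137, 935.6 and 1069 under dexamethasone and 670.3, 591.5 and 587.0 with the match polyamide. No groups overlapped, and the difference from non-treated was -1.09 (SE 0.08, 3 arrays per group; limma adjusted p = 8.7e-10). Of 4 further probe sets 3 were lower and 1 was not called (-0.39, limma adjusted p = 0.15). The mismatch polyamide gave -0.60, and match was below it by -0.48 (limma adjusted p = 0.00015). The coactivators NCOA2 (-1.66) and NCOA1 (-1.24) and the acetyltransferase KAT2B (-2.08) were lower as well, and of 3 further probe sets of NCOA2 2 were lower and 1 was not called.

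The counts of the remaining lists stand beside the same 19.4% higher and 18.1% lower over all genes. The higher counts of the clock, cholesterol and A549 identity lists lie near that share. The lower counts of the clock, cell cycle, cholesterol and RNA polymerase II lists lie near or below the lower share. Clock genes were higher in 3 of 16 and lower in 2, with PER2 and the repressor CIART (1.43) above and BMAL1 (-1.06) below. Cell cycle genes were higher in 12 of 31 and lower in 5 (median 0.15), with the licensing factor CDT1 at 1.06 and CDC20 at 0.76. RNA polymerase II machinery was higher in 13 of 32 and lower in 3 (median 0.22), with the kinase CDK7 at 1.23 and TAF2 at -0.73. Only 5 of these 32 were higher as deposited or with median centring. Cholesterol genes were higher in 3 of 14 and lower in 3, and ribosomal proteins were higher in 3 of 23, a count that was 0 as deposited, with median centring and with trimmed-mean scaling. A549 identity genes were higher in 4 of 16 and lower in 6, with TFF1 and EPCAM (1.39) above and the urea cycle enzyme CPS1 (-1.20) and the cadherin CDH1 (-1.16) below, CDH1 with a further probe set not called (-0.25). Of the leukocyte list MS4A1 (0.68) was the only one of 8 called, with sums of 149 to 175.4 and 171.7 to 192.1. Of the fibroblast and endothelial list COL1A1 (0.82) was higher and ACTA2 (-0.50) lower, with sums of 378.1 to 383.6 and 401.1 to 456.4. None of the 3 further probe sets of COL1A1 was called, nor the 1 of ACTA2 (-0.05), nor the 1 of MS4A1 (0.02), and the call of ACTA2 was lost as deposited (-0.47, limma adjusted p = 0.11) and with spike-in scaling (-0.35, 0.20). The part of these cell types in the results was not tested.

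Gene span was taken from RefSeq as a property that no rule used. Genes called higher in the match comparison had a median span of 18.1 kb, genes called lower 86.5 kb and all tested genes 26.9 kb. Of 4092 genes under 10 kb, 23.5% were higher and 6.16% lower, with a median log2 difference of 0.12. Of 1152 genes over 200 kb, 2.26% were higher and 52.3% lower, with a median of -0.54. Dexamethasone alone gave medians of -0.02 to -0.04 in all span bins.

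**Figure D4:**
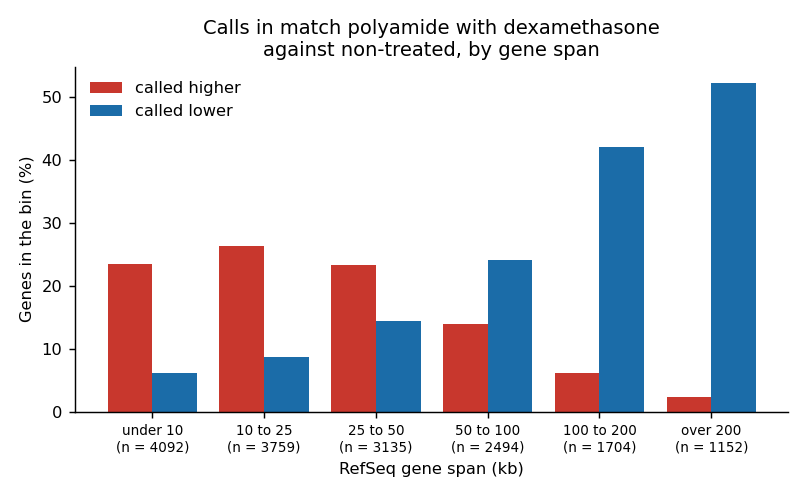
Share of genes called higher (red) and lower (blue) in match polyamide with dexamethasone against non-treated, in 6 bins of RefSeq gene span in kb, with the number of genes under each bin. The higher share drops from 23.5% under 10 kb to 2.26% over 200 kb, and the lower share climbs from 6.16% to 52.3%.

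Hormone-moved genes differed in span between the outcomes. The 10 induced genes below non-treated had a median span of 227 kb, the 44 not called 66.7 kb and the 85 still induced 17.4 kb. The 10 repressed genes above non-treated had a median of 7.16 kb, the 12 not called 53.6 kb and the 33 still repressed 26 kb. TANC2 spans 461 kb and ZBTB20 833 kb, whereas NR4A2 spans 8.29 kb and CXCL3 2.10 kb. Of the 10 induced genes below non-treated, THBS1 was the shortest at 18.4 kb. The part of span in these outcomes was not tested.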

How the data were processed

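Each deposited value is a linear intensity of 1 probe set on 1 array, and MAS5 is the tool named in the submitters' processing notes, with neither version nor scaling target. There were 54675 probe sets on 15 arrays, and all its columns were used. After 62 control probe sets were left out, arrays were brought to a common distribution by quantile normalization, and tests used log2(signal + 16). Probe sets were tested where 3 or more arrays lay above their own 40th percentile, which kept 39744 (72.7%). limma 3.58.1 in R 4.3.3 was fitted to all 15 arrays with 1 coefficient per group and moderated variances with a trend (10 residual and 9.35 prior degrees of freedom), and p-values were adjusted by Benjamini-Hochberg over all probe sets tested. The fit was tested on simulated data.

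Of the probe sets, 41097 had 1 gene symbol, 1801 several and 11777 none. Each of 16358 genes was represented by the probe set carrying its symbol alone, not ending in _x_at where possible, with the highest mean. A gene counted as moved by dexamethasone if called and changed at least 2-fold, as still moved if called in the same direction against non-treated, and as past the non-treated level if called in the other. Named genes were, with fully separated arrays where a call was needed, the 8 most raised, the 8 most lowered, the 8 most extreme still moved or past non-treated in each direction, the 6 not called with the largest hormone change in each direction, 11 fixed genes and, from each list, the 4 genes (or fewer) of smallest adjusted p. The genes CIDEC, TFCP2L1, SYBU, AQP3, TRIM29, HMOX1, ANXA1, REEP1, PLEKHA7, OSGIN1 and IER2, those quoted in the mismatch comparisons and those with further probe sets were chosen after their values were seen. The comparison, the members and the lists were chosen with earlier results of these data known. Alternatives changed the scaling, the added constant, the filter, the variance trend, the arrays fitted and the rule for a hormone change.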

Additional observations from a re-analysis of the deposited data

How the results depend on the processing

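Of 118 named genes, 90 kept their direction and their side of the threshold under all alternatives, 18 lost and 4 gained a call in at least 1, and 6 uncalled genes changed sign. Those were ACSL1 (0.038 as deposited, 0.168 with spike-in scaling, -0.132 to 0.068 without 1 array), CNNM4 (0.098 with spike-in scaling, -0.138 to 0.065 without 1 array), PLK2 (0.027 with spike-in scaling) and, without 1 array, MARCHF4 (-0.347 to 0.056), ZBTB16 (-0.401 to 0.086) and DNAJC15 (-0.258 to 0.101). The signals as deposited gave 7562 called probe sets, 3380 lower, and 18 induced ones past non-treated (28 in the main setting, with 155 still moved and 107 not called; 46, 21 and 15 still moved, not called and past among the repressed). Median centring gave 3794 higher and 9 repressed past non-treated. Spike-in scaling, which moves the median of all probe sets from 0.03 to 0.20, gave 2780 lower, 1252 higher by 2-fold, 12 induced past and 39 repressed not called. An added constant of 1 gave 1446 higher and 2472 lower by 2-fold (713 and 1484 in the main setting), 78 repressed not called and 31 past; 64 gave 238 and 642, with 100 induced still moved, 42 not called and 14 past, and 16, 5 and 8 repressed. A hormone change of 1.5-fold gave 324, 242 and 117 induced and 196, 145 and 73 repressed. Any called hormone change gave 426, 351 and 245 induced and 403, 303 and 205 repressed. More probe sets enter at these cuts, and their shares also differ, since those still moved were no longer the majority in either direction. The cause of the shifts in shares, and of the other shifts, was not tested. Without 1 array, 10312 to 11064 probe sets were called, 5166 to 5533 higher and 5146 to 5531 lower, with 750 to 789 and 1478 to 1541 at 2-fold; induced ones still moved numbered 148 to 161, not called 99 to 133 and past 22 to 29, repressed ones 44 to 50, 20 to 32 and 11 to 17. Only leaving out dexamethasone replicate 3 (32 repressed not called) moved a count by over 1.5 times. Replicate numbers are shared by the groups. Same-numbered non-treated and match arrays deviated together at r of 0.04 to 0.11, and differently numbered ones at -0.079 to 0.015. Over all group pairs the ranges were -0.084 to 0.116 and -0.132 to 0.135. These values do not settle whether the numbers mark pairs, and the main fit took none. With the replicate block 6032 probe sets were higher and 5875 lower. The number of arrays and signals near the bottom of the scale limit weakly expressed genes, whose folds depend on the added constant.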
